A study of Mus musculus with 4 samples.

Results

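The 10 genes described here carry the testicular Leydig cell's steroid pathway and its peptide hormone: Star, Cyp11a1, Cyp17a1, Hsd3b1, Hsd3b6, Hsd17b3, Insl3, Srd5a1, Akr1c14 and Fdx1. They were picked by symbol, and each matched 1 of the 31053 gene rows of the single-cell count matrices. The study asked what the transcription factor SOX17 does in the rete testis (RT), the duct network into which the seminiferous tubules open, and in the Sertoli valve (SV), the ring of modified Sertoli cells where a tubule meets it. At postnatal day 14 the RT with the tubules next to it was dissected from C57BL/6 mouse testes, dissociated and counted with 10x Genomics 3′ single-cell chemistry, with 3 pups pooled for each of 2 libraries of control and 2 of Sox17-cKO mice. Sox17-cKO mice were labelled SF1Cre:Sox17flox/flox. The control libraries were labelled SF1Cre, whereas the study's methods describe littermates with Sox17flox/flox as controls, so whether the controls carried the Cre is not settled. SF1Cre is driven by sequences of Nr5a1, which is active in Leydig, Sertoli and other somatic cells of the gonad, so that a Sox17 deletion is not limited to the RT by the driver. After collagenase the suspension above the settled tubules, which holds interstitial cells, was discarded, and Leydig cells are therefore those that stayed with the tissue.

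Leydig cells lie between the tubules and make androgens under luteinising hormone, whose receptor is Lhcgr. STAR carries cholesterol into the mitochondrion, where CYP11A1 cuts its side chain to pregnenolone with electrons from the ferredoxin FDX1. The 3β-hydroxysteroid dehydrogenases HSD3B1 and HSD3B6, CYP17A1 and HSD17B3 then lead to testosterone, SRD5A1 and AKR1C14 reduce androgens further, and INSL3 is a hormone of the same cells that acts in testis descent. In the immature testis androgens are known to be reduced rapidly by the 5α-reductase and 3α-hydroxysteroid dehydrogenase steps, and androstenedione can be turned into testosterone by HSD17B3 of fetal Sertoli cells.

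The 4 libraries held 9388 to 13364 barcodes and 89969877 to 107203219 unique molecular identifiers (UMIs, 1 per captured RNA molecule). Barcodes with 1000 to 4500 detected genes were kept as cells, 22567 of 46001, and grouped into 21 clusters and 11 classes without use of the 10 genes. Levels are UMIs of a gene per 1000000 UMIs (CPM) of the cells of a class in 1 library, and n is 4 libraries unless stated. Each molecule is counted once near its 3′ end, so levels carry no factor for transcript length. Pairs of libraries shared 20 to 43 barcode sequences. Sox17, the targeted gene, was at 356 and 312 CPM in RT-like cells of the controls and at 46.0 and 34.6 CPM in those of Sox17-cKO. In endothelial-like cells it was at 508 and 344 CPM in controls and at 102 and 101 CPM in Sox17-cKO, while Leydig-like cells held 1 Sox17 UMI in all. The endothelial-like values rest on few cells. They came from 33 and 62 UMIs in 8 and 24 cells of controls. In Sox17-cKO they came from 10 and 18 UMIs in 14 and 26 cells. From these same libraries the study reported a Sox17 decrease specific to its RT cluster, which lacked Pecam1. By in situ hybridisation in older mice the study reported that Sox17 signals of the vasculature were kept in Sox17-cKO.

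The Leydig-like cluster held 263 cells. Of 10 Leydig markers fixed for naming, none of them one of the 10 genes, 8 were highest in it, among them Lhcgr at 127 to 204 CPM, Prlr at 680 to 796 CPM and Hao2 at 99.6 to 160 CPM. Csn3 and Mc2r had no UMI there. Markers of other types were lower in these cells than in the types they name. The summed level of 6 macrophage markers was 4.11 to 8.46 CPM against 8541 to 13313 CPM in macrophage-like cells, and that of 10 stromal markers was 991 to 3027 CPM against 31528 to 45897 CPM in stromal-like cells. For 8 Sertoli markers it was 688 to 1408 CPM against 13318 to 14229 CPM in Sertoli-like cells, and for 8 germ cell markers 88.3 to 212 CPM against 4812 to 5829 CPM in germ-like cells. Lists of 6 myoid and 5 endothelial markers reached at most 234 and 55.0 CPM. Pecam1 and Csf1r, which define endothelial cells and macrophages, were at 0.

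Leydig-like cells were 14 of 6135 cells in control 1, a share of 0.228% (95% exact binomial interval 0.125 to 0.383%). They were 89 of 5174 in control 2, 1.72% (1.38 to 2.11%). They were 44 of 5652 in Sox17-cKO 1, 0.778% (0.566 to 1.04%), and 116 of 5606 in Sox17-cKO 2, 2.07% (1.71 to 2.48%). Both libraries numbered 2 held more than both numbered 1, and the genotypes overlapped. The numbers coincide with the Cell Ranger version, and within each number the Sox17-cKO library held the larger share. The mean share was 0.974% in controls and 1.42% in Sox17-cKO, a difference of 0.45 percentage points with an exact two-sided permutation p of 0.667, where 0.333 is the smallest p that 2 libraries against 2 can give. With genotypes exchanged only within a number the exact two-sided permutation p was 0.5, the smallest that 2 pairs can give. Since whole Leydig cells were few in control 1, 1 UMI there was worth 7.86 CPM, and its values are the least precise. Intervals of this kind cover counting error only.

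Among the genes of the first step, Star in Leydig-like cells was at 1046 and 258 CPM in the controls and at 353 and 508 CPM in Sox17-cKO, a mean of 541 ± 352 CPM (SD). Cyp11a1 was at 1093 and 736 CPM in controls and at 1042 and 2207 CPM in Sox17-cKO, a mean of 1269 ± 645. Fdx1 was at 3649 and 1216 CPM in controls and at 1126 and 1237 CPM in Sox17-cKO, a mean of 1807 ± 1229. For Star and Fdx1 control 1 was the highest library, for Cyp11a1 Sox17-cKO 2, and in each case the genotypes overlapped.

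Of the enzymes that follow, Cyp17a1, which leads from C21 to C19 steroids, was at 1188 and 1361 CPM in controls and at 1023 and 2426 CPM in Sox17-cKO, a mean of 1499 ± 633. Hsd3b1 was at 2108 and 562 CPM in controls and at 1005 and 845 CPM in Sox17-cKO, a mean of 1130 ± 677. Hsd3b6 was at 70.8 and 499 CPM in controls and at 578 and 298 CPM in Sox17-cKO, a mean of 361 ± 227. The libraries ran in different orders for the pair: control 1 was highest in Hsd3b1 and lowest in Hsd3b6, where it rested on 9 UMIs. Hsd17b3, the last step to testosterone, had 0 and 12 UMIs in the controls and 1 and 7 in Sox17-cKO, a mean of 4.91 CPM.

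Insl3 was at 315 and 1542 CPM in controls and at 575 and 311 CPM in Sox17-cKO, a mean of 686 ± 584, so that control 2 stood far above the rest. Of the genes that reduce androgens, Srd5a1 was the steadiest, at 212 and 191 CPM in controls and at 226 and 150 CPM in Sox17-cKO, a mean of 195 ± 33.3. Akr1c14 had 0 and 9 UMIs in controls and 3 and 6 in Sox17-cKO, a mean of 5.01 CPM. Between neighbours in the order of means (Fdx1, Cyp17a1, Cyp11a1, Hsd3b1, Insl3, Star, Hsd3b6, Srd5a1, Akr1c14, Hsd17b3) the ranges over libraries overlapped except between Srd5a1 and Akr1c14. In control 1, where neither Akr1c14 nor Hsd17b3 had a UMI, 3 UMIs would amount to 23.6 CPM.

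**Figure D1:**
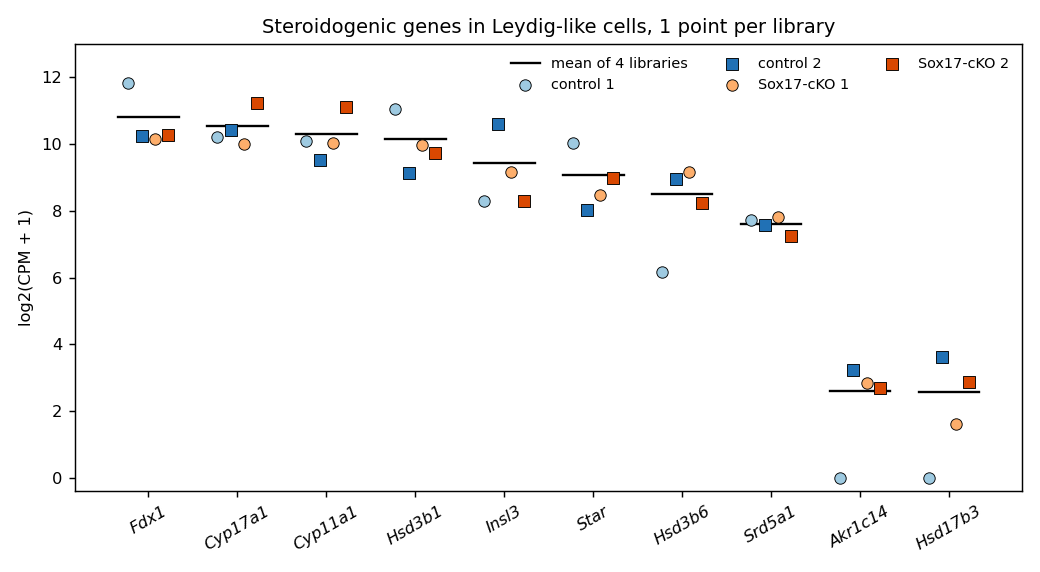
Levels of the 10 genes in Leydig-like cells, as log2(CPM + 1) on the vertical axis, with 1 point per library and a line at the log2 of the mean CPM plus 1 over the 4 libraries. Fdx1, Cyp17a1, Cyp11a1 and Hsd3b1 have means of at least 1130 CPM, Akr1c14 and Hsd17b3 have means of 5.01 and 4.91 CPM, and the points of controls and Sox17-cKO overlap for each gene.

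The highest gene differed between libraries: Fdx1 in control 1 and Sox17-cKO 1, Insl3 in control 2 and Cyp17a1 in Sox17-cKO 2. There were 0.034 Hsd3b6 UMIs per Hsd3b1 UMI in control 1 and 0.888 in control 2, against 0.575 and 0.352 in Sox17-cKO 1 and 2. There were 0.265 Insl3 UMIs per Cyp17a1 UMI in control 1 and 1.13 in control 2, against 0.562 and 0.128 in Sox17-cKO 1 and 2. Between the highest and the lowest library Srd5a1 spanned 1.51-fold, Cyp17a1 2.37-fold, Insl3 4.96-fold and Hsd3b6 8.16-fold.

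Hsd3b1 and Hsd3b6 are close paralogs that lie 37750 bases apart on chromosome 3 of GRCm38, both on the minus strand (GENCODE vM21 coordinates, Hsd3b1 at chr3:98852194-98859794 and Hsd3b6 at chr3:98805504-98814443). Reads that fit both copies could be lost or split in the authors' counting, and the levels of the pair are uncertain to that extent. Their promoters, from RefSeq on GRCm38.p6, are shown because the libraries ran in different orders for the pair. Each runs from 250 bases before to 50 bases after the start, on the minus strand, at chr3:98859745-98860044 for Hsd3b1 and chr3:98814394-98814693 for Hsd3b6. Cyp11a1 is shown because it was also seen outside Leydig-like cells, and its window lies at the start inside the gene, at chr9:58014702-58015001, on the plus strand, with capitals marking AGGTCA, the core of the site that NR5A1 is known to bind.
Hsd3b1: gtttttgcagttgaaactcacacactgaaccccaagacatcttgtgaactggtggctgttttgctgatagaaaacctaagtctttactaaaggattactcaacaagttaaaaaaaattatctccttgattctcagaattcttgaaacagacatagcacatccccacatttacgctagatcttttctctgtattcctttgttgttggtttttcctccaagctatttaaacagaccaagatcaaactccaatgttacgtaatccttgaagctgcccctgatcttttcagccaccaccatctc
Hsd3b6: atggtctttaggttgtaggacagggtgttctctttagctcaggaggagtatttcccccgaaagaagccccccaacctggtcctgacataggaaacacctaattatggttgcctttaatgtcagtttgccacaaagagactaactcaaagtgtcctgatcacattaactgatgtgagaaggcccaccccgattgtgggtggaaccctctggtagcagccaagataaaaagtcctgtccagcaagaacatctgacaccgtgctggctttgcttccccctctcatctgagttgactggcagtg
Cyp11a1: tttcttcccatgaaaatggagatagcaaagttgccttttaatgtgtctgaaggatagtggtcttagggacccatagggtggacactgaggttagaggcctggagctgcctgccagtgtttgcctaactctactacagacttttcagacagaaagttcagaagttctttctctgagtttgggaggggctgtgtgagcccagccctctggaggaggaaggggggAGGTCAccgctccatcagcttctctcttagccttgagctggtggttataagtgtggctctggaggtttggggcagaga
Of the 10 genes, 8 matched the RefSeq table with 9 windows. The letters AGGTCA, searched on both strands, occurred in 1 of the 9 windows, the printed one of Cyp11a1, and in 16.3% of all 32851 windows of the same length. A match describes letters and not binding, and counts at the 3′ end do not tell which start was used.

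Within Leydig-like cells the genes were unevenly held. Fdx1 was seen in 232 of the 263 cells, Insl3 in 198, Star in 196, Cyp17a1 in 173, Cyp11a1 in 172, Srd5a1 in 160, Hsd3b1 in 157 and Hsd3b6 in 106. Of the 7 genes Star, Cyp11a1, Cyp17a1, Hsd3b1, Hsd3b6, Insl3 and Fdx1, 167 cells (63.5%) had 5 or more, 37 had all 7 and 13 had none. A single cell reached 244 UMIs of Cyp11a1, and another 120 of Cyp17a1.

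The 90 cells without a Cyp17a1 UMI (median 8158 UMIs a cell, against 11614 in the other 173) were at 133 CPM for Lhcgr against 160 CPM in cells with Cyp17a1. Hsd3b6 was at 431 against 406 CPM, Insl3 at 567 against 924 CPM and Cyp11a1 at 651 against 1664 CPM. Star was at 249 against 470 CPM, Hsd3b1 at 447 against 961 CPM, Fdx1 at 653 against 1566 CPM and Srd5a1 at 153 against 192 CPM. Both Hsd3b1 and Hsd3b6 were seen in 66 cells, Hsd3b1 alone in 91, Hsd3b6 alone in 40 and neither in 66. Across the 263 cells, which share libraries and differ in depth, Spearman's rho of the shares of UMIs was 0.65 for Cyp11a1 with Fdx1, 0.62 for Cyp11a1 with Hsd3b1, 0.62 for Star with Fdx1 and 0.37 for Cyp17a1 with Insl3, positive in each library. It was -0.14 for Hsd3b1 with Insl3, -0.11 for Hsd3b1 with Hsd3b6 and -0.10 for Cyp11a1 with Hsd3b6, negative in each library but slight in those with most cells. In this order it was -0.07, -0.05 and -0.02 in control 2 (89 cells) and -0.03, -0.03 and -0.0067 in Sox17-cKO 2 (116 cells). It was -0.44, -0.28 and -0.61 in control 1 (14 cells) and -0.28, -0.41 and -0.40 in Sox17-cKO 1 (44 cells).

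With cells thinned to 2000 UMIs, which left out 2 Leydig-like cells, 52.1% had a Cyp17a1 UMI, 50.2% Insl3, 49.4% Cyp11a1, 35.2% Star and 70.1% Fdx1 (unthinned 65.8%, 75.3%, 65.4%, 74.5% and 88.2%). The same thinned shares in germ-like cells, which lie inside the tubules and are not known to make androgens from cholesterol, were 0.127% for Cyp17a1, 0.0254% for Insl3, 0.203% for Cyp11a1, 1.70% for Star and 17.6% for Fdx1 (median depth 7526 UMIs before thinning, against 10873 in Leydig-like cells). Without Sox17-cKO 2 the germ-like shares were 0.0303% for Cyp17a1 and 0.0758% for Cyp11a1.

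The comparison of Sox17-cKO with control Leydig-like cells, on UMIs summed per library with edgeR's quasi-likelihood test and Benjamini-Hochberg adjustment over 7654 genes, called 0 genes (0% of those tested) at an adjusted p of 0.05, with 65 genes at an unadjusted p under 0.05 and 1 call by DESeq2. Of the 10 genes, 8 passed the filter on low counts and none passed the test, each with an adjusted p of 1.0. The estimates, as log2 of Sox17-cKO over control with standard errors, were -1.13 (0.56) for Insl3, -1.06 (0.46) for Fdx1, 0.81 (0.42) for Cyp11a1, -0.57 (0.52) for Star, -0.53 (0.50) for Hsd3b1, 0.47 (0.58) for Hsd3b6, 0.40 (0.41) for Cyp17a1 and -0.12 (0.38) for Srd5a1. Of these 8 estimates 3 lay above 0 and 5 below, with a median of -0.33 beside 0.02 over all genes tested. Single libraries set several of these. Without control 1 the estimate was 0.71 for Star, 0.69 for Hsd3b1 and -0.07 for Fdx1, without control 2 it was 0.49 for Insl3, and without Sox17-cKO 2 it was -0.33 for Cyp17a1. Hsd3b6 passed the test without control 2, with a log2 of 2.61 and an edgeR adjusted p of 0.0481, when control 1 with its 9 UMIs was the sole control.

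Outside Leydig-like cells the genes differed in where they were next highest. In 8 of the 10 genes the mean was highest in Leydig-like cells, and in those 8 the lowest Leydig-like library lay above the highest library of the next class, which was the case for 0.707% of the 24328 genes with a UMI in these classes. The 10 genes were chosen as genes of this cell type, so the count describes them. The exceptions were Hsd17b3, highest in Sertoli-like cells outside the SV cluster, and Akr1c14, highest in endothelial-like cells, and for both the range over libraries overlapped that of the next class.

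**Figure D2:**
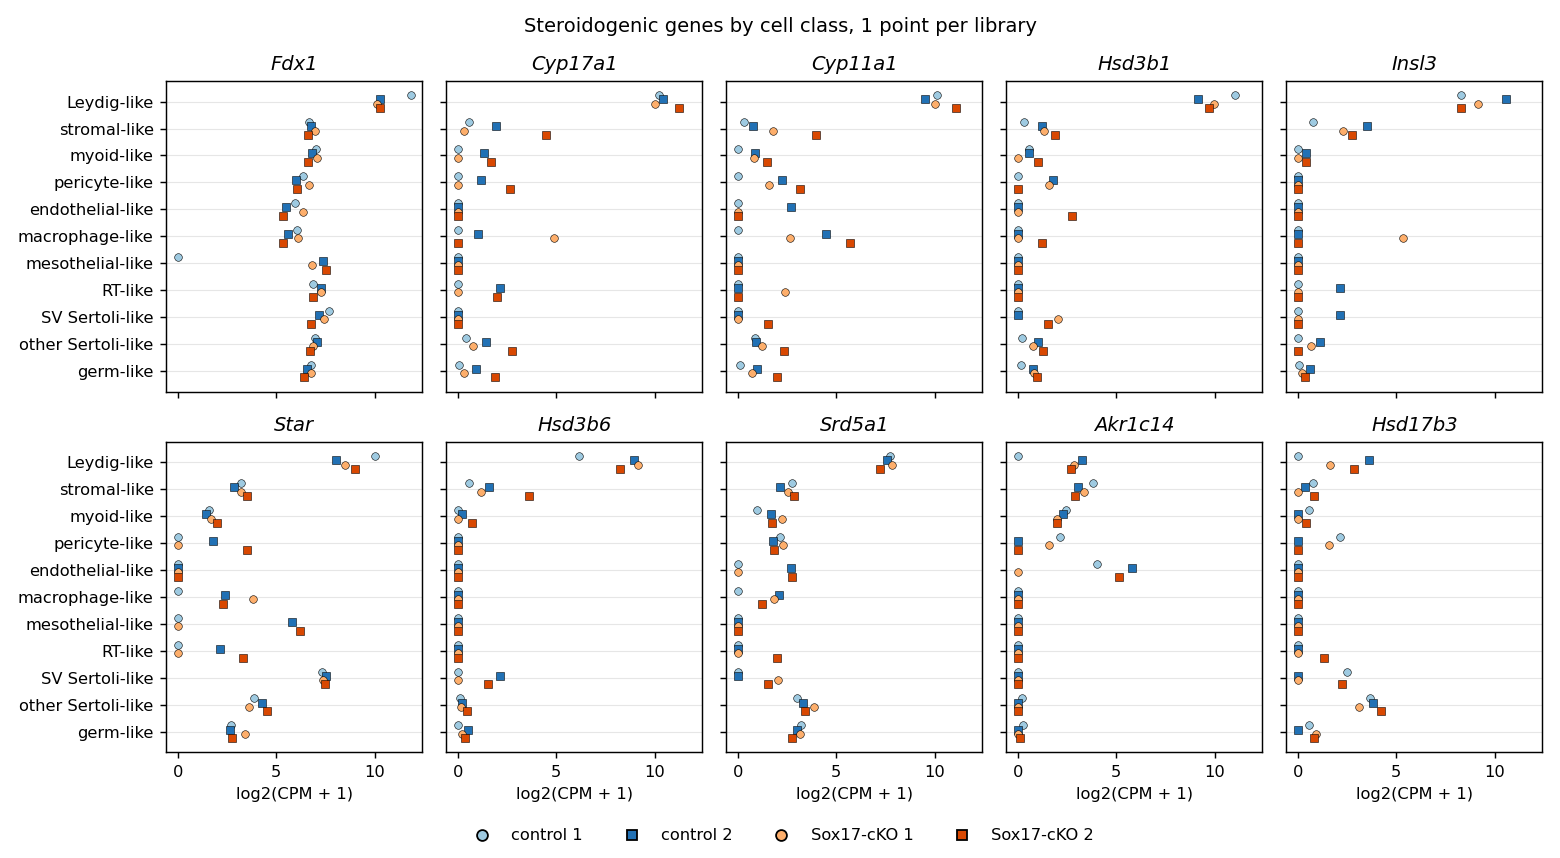
Levels of the 10 genes in 11 cell classes, 1 panel per gene, as log2(CPM + 1) on the horizontal axis with 1 point per library. Leydig-like cells lie to the right in 8 panels, Star has a second group of points in SV Sertoli-like cells at 160 to 185 CPM, Hsd17b3 is highest in the other Sertoli-like cells, and mesothelial-like points rest on 17 cells in all.

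Star was high in SV Sertoli-like cells, at 160 and 185 CPM in controls and at 162 and 180 CPM in Sox17-cKO, a mean of 172 ± 12.5 over 228 cells. In the other Sertoli-like cells it was at 13.4 and 18.2 CPM in controls and at 11.4 and 21.9 CPM in Sox17-cKO, and in germ-like cells at 5.31 to 9.65 CPM. Of the germ-like clusters, Star was highest, at 20.3 CPM, in 1171 cells with a median of 37.6% mitochondrial UMIs, 663 of them of Sox17-cKO 1. Of the other Sertoli-like clusters it was highest, at 20.4 CPM, in 812 cells with a median of 29.8%. All SV Sertoli-like values lay above all values of the other Sertoli-like cells and below those of Leydig-like cells. The same SV Sertoli-like sums held 272 Star UMIs with 1 of Cyp11a1 and 0 of Cyp17a1, where Leydig-like cells had 0.239 Star UMIs per Cyp17a1 UMI. A Star UMI was seen in 21.9% of SV Sertoli-like cells thinned to 2000 UMIs (95% exact binomial interval 16.5 to 28.1%), in 3.14% of the other Sertoli-like cells and in 1.70% of germ-like cells, at median depths of 6760, 5131 and 7526 UMIs (46.1%, 7.31% and 4.73% unthinned).

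Against the other Sertoli-like cells, with library as a block, Star was higher in SV Sertoli-like cells by 3.42 on the log2 scale (SE 0.16, edgeR adjusted p 2.98e-20). Fdx1 was higher by 0.38 (SE 0.13, edgeR adjusted p 0.0228). Hsd17b3 was lower, with a log2 of -2.37 (SE 0.59, edgeR adjusted p 0.00162), as was Srd5a1 with -2.92 (SE 0.74, edgeR adjusted p 0.00196). These were the 4 of the 10 genes that passed the filter, among 10616 genes of which 14.5% were called higher and 14.3% lower. The cluster and the test come from the same cells, and the study's own list for this cluster names Star, so the direction is not independent evidence. SV Sertoli-like cells held 4 Hsd17b3 and 2 Srd5a1 UMIs in all, against 428 and 335 in the other Sertoli-like cells. Both genes passed the filter through the other Sertoli-like cells. Their lower direction is therefore no separate evidence, and the size of the difference rests on those few UMIs. The call of Fdx1 was lost with DESeq2 (adjusted p 0.113), without a filter (edgeR adjusted p 0.127), without control 1 (0.304), without Sox17-cKO 1 (0.0745) and under 10% mitochondrial UMIs (0.171), where Hsd17b3 and Srd5a1 did not pass the filter.

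Hsd17b3 in Sertoli-like cells outside the SV cluster was at 11.6 and 13.2 CPM in controls and at 7.69 and 17.7 CPM in Sox17-cKO, from 428 UMIs over 5992 cells, against 0 to 0.903 CPM in germ-like cells. The groups of libraries did not overlap between the classes. After thinning, 2.31% of these cells had a Hsd17b3 UMI and 0.127% of germ-like cells (6.46% and 0.396% unthinned). Against germ-like cells, with library as a block, Hsd17b3 was higher by 4.76 (SE 0.55, edgeR adjusted p 0.000271), Star by 1.64 (SE 0.32, edgeR adjusted p 0.00282), Cyp17a1 by 1.62 (SE 0.35, edgeR adjusted p 0.00433), Cyp11a1 by 1.21 (SE 0.46, edgeR adjusted p 0.0446), Srd5a1 by 0.78 (SE 0.22, edgeR adjusted p 0.0160) and Fdx1 by 0.64 (SE 0.13, edgeR adjusted p 0.00307). Of 13657 genes tested, 37.5% were called higher and 41.7% lower. All 6 of the genes that passed the filter were called, a count that describes and does not set them apart. Hsd17b3, with 35 germ-like UMIs in all, passed the filter through Sertoli-like cells. Its higher direction is therefore no separate evidence. A single Sertoli-like barcode of Sox17-cKO 2 held 29 of the 69 Cyp17a1 UMIs of the class, and the Cyp11a1 call was lost without control 1 (edgeR adjusted p 0.0836), without Sox17-cKO 1 (0.112), without Sox17-cKO 2 (0.0683) and without integration (0.0523). The Srd5a1 call was lost without Sox17-cKO 1 (edgeR adjusted p 0.0710), without Sox17-cKO 2 (0.0505) and under 10% mitochondrial UMIs (0.237). Cyp17a1 did not pass the filter without control 2 or without Sox17-cKO 2, nor did Cyp17a1 and Cyp11a1 under 10% mitochondrial UMIs or Cyp11a1 with the highest doublet scores removed.

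Akr1c14, a 3α-hydroxysteroid dehydrogenase, had more of its UMIs in stromal-like cells than in any other class. In stromal-like cells it was at 13.2 and 7.39 CPM in controls and at 9.09 and 6.55 CPM in Sox17-cKO, in myoid-like cells at 2.98 to 4.42 CPM and in endothelial-like cells at 15.4, 55.5, 0 and 33.7 CPM, the last from 17 UMIs in 72 cells. Germ-like cells held 5 Akr1c14 UMIs in all. Stromal-like cells held 49.5% of its 533 UMIs and Leydig-like cells 3.38%. The Akr1c14 ranges of stromal-like and Leydig-like cells overlapped (6.55 to 13.2 and 0 to 8.46 CPM).

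Fdx1 was present in every class, between a mean of 55.0 ± 14.2 CPM in macrophage-like cells and 157 CPM (range 109 to 207 CPM) in SV Sertoli-like cells, and Leydig-like cells stood above all of them. Srd5a1 was next highest in Sertoli-like cells outside the SV cluster, at 9.91 ± 2.84 CPM, and in germ-like cells, at 7.15 ± 1.11 CPM, with overlapping ranges.

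Stromal-like cells, which lie next to Leydig cells, were compared with germ-like cells of the same libraries. Of the 10 genes, 7 passed the filter. Akr1c14 was higher in stromal-like cells by 7.25 on the log2 scale (SE 0.48, edgeR adjusted p 6.86e-06), a value that depends on the few germ-like UMIs. It passed the filter through stromal-like cells, so its higher direction there is no separate evidence. Cyp17a1 was higher by 2.70 (SE 0.43, edgeR adjusted p 0.000618), Cyp11a1 by 1.96 (SE 0.49, edgeR adjusted p 0.00659), Hsd3b1 by 1.58 (SE 0.35, edgeR adjusted p 0.00364), Star by 0.80 (SE 0.22, edgeR adjusted p 0.0103) and Fdx1 by 0.57 (SE 0.10, edgeR adjusted p 0.00102). Srd5a1 had an estimate of -0.07 (SE 0.23, edgeR adjusted p 0.786). Of the 14237 genes tested, 39.3% were called higher and 41.6% lower. The median of the 7 estimates was 1.58, and that of all genes tested was -0.07.

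The Cyp17a1 of the stroma came from few cells. It was at 0.463 and 2.83 CPM in stromal-like cells of controls and at 0.246 and 20.9 CPM in those of Sox17-cKO, and Cyp11a1 was at 0.232 and 0.725 CPM in controls and at 2.46 and 14.7 CPM in Sox17-cKO. Sox17-cKO 2 stood above the other libraries in both. In 1 small stromal-like cluster of 182 cells led by cell-cycle genes, 10 cells with 3 or more Cyp17a1 UMIs, 9 from Sox17-cKO 2 and 1 from control 2, held 73.1% of its Cyp11a1, 69.2% of its Hsd3b6 and 63.1% of its Insl3. They also held 222 of its 224 Cyp17a1 UMIs (99.1%), which follows from their choice by that gene. Summed, these 10 cells were at 660 CPM for Hsd3b6, 567 CPM for Cyp11a1, 466 CPM for Insl3 and 78.9 CPM for Lhcgr, and at 804 CPM for Fdx1, 143.5 CPM for Star, 122 CPM for Hsd3b1 and 93.3 CPM for Srd5a1. Beside the library ranges of Leydig-like cells, Insl3 lay within, Hsd3b6 above, and Cyp11a1, Lhcgr, Fdx1, Star, Hsd3b1 and Srd5a1 below. Their median depth was 14460 UMIs against 10352 in the other 172 cells, and 5 of the 10 against 64 of the 172 were among the barcodes with the highest doublet scores. The part of doublets in this result was not tested.

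Without this cluster stromal-like Cyp17a1 was at 0 to 2.17 CPM, and its difference from germ-like cells fell to a log2 of 0.29 (SE 0.39, edgeR adjusted p 0.519). Cyp11a1 was higher by 1.08 (SE 0.42, edgeR adjusted p 0.0432), but 21 of its UMIs lay in 1 barcode of Sox17-cKO 2 that also held Cma1 and Cpa3. With the barcodes of that kind, described further on, left out as well, its difference was 0.70 (SE 0.45, edgeR adjusted p 0.185) and no longer passed the test. Star stayed higher by 0.68 and Akr1c14 by 7.23 in both settings, and Hsd3b1 did not pass the filter. Without Sox17-cKO 2 the genes Cyp17a1, Cyp11a1 and Hsd3b1 did not pass the filter, as under 10% mitochondrial UMIs, and Star had an edgeR adjusted p of 0.0647.

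**Figure D3:**
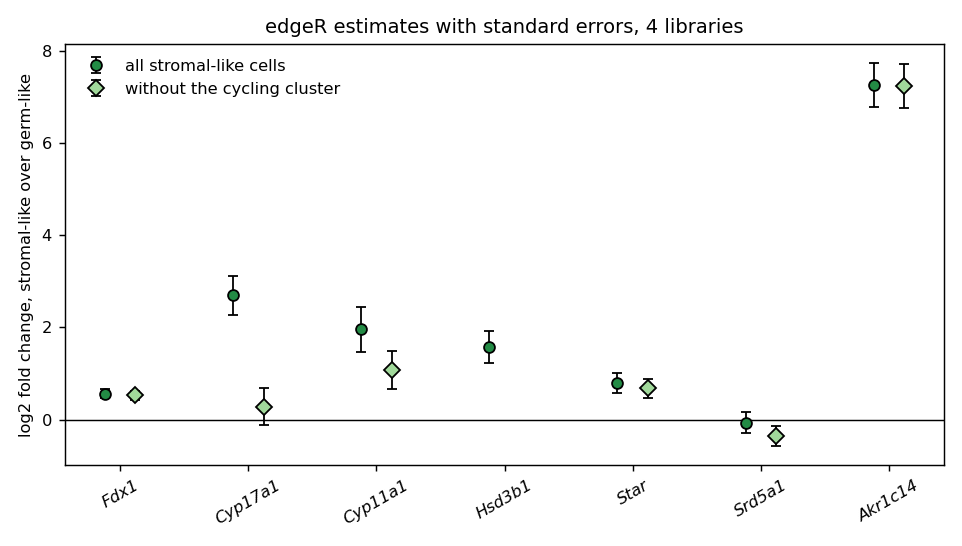
Difference between stromal-like and germ-like cells for the 7 genes tested, as the edgeR log2 fold change with its standard error over 4 libraries, for all stromal-like cells (circles) and without the cycling cluster (diamonds, absent for Hsd3b1). Leaving out the cluster takes Cyp17a1 from 2.70 to 0.29 and leaves Akr1c14 near 7.2.

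Insl3 in stromal-like cells was at 0.695 and 10.4 CPM in controls and at 3.93 and 5.69 CPM in Sox17-cKO. A stromal-like cluster of 1612 cells had 108 Insl3 UMIs in 60 cells, at most 16 in 1 cell, and 87 of these UMIs were of control 2. The largest stromal-like cluster, of 2869 cells, had 11, and the small cycling cluster of 182 cells had 103, at 53.6 CPM the highest level of these clusters, 65 of them in its 10 cells with high Cyp17a1. Thinned to 2000 UMIs, 0.820% of stromal-like cells had an Insl3 UMI and 0.0254% of germ-like cells (1.89% and 0.156% unthinned), at median depths of 6387 and 7526 UMIs. Without control 2 the thinned share in stromal-like cells was 0.511%. Insl3 did not pass the filter of the comparison with germ-like cells.

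The levels of whole libraries were set beside the low levels in germ-like cells. Cyp17a1 was there at 0.0444 and 0.927 CPM in controls and at 0.226 and 2.69 CPM in Sox17-cKO, and over all barcodes of the libraries at 3.14 and 30.6 CPM in controls and at 9.36 and 43.6 CPM in Sox17-cKO. The order of the libraries was the same in both. It was also the same for Cyp11a1, Hsd3b6 and Insl3, and differed for the other 6 genes. Those 6 include Fdx1, Srd5a1 and Star, with 6322, 466 and 418 germ-like UMIs. The germ-like orders that matched rest on 56 Cyp11a1, 45 Cyp17a1, 13 Insl3 and 11 Hsd3b6 UMIs in all. The share of all genes with the same order is not given. Germ-like cells are also part of the whole libraries they are set beside. In germ-like cells there were 123 and 5.73 Star UMIs per Cyp17a1 UMI in controls and 42.8 and 2.10 in Sox17-cKO. Leydig-like cells had 0.190 to 0.881. The germ-like ratios rest on 1 and 11 Cyp17a1 UMIs in controls and on 4 and 29 in Sox17-cKO. A part of RNA from broken cells in these low levels was not tested.

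Cyp11a1 had a further source. In macrophage-like cells it was at 0 and 21.3 CPM in controls and at 5.24 and 51.0 CPM in Sox17-cKO, with 61 UMIs in 10 of 294 cells. The same sums held 12 UMIs of Star, 12 of Cyp17a1, 15 of Insl3 and 0 of Hsd3b6, and those of Insl3 were all of Sox17-cKO 1. Without the upper limit of detected genes the class was at a mean of 48.8 CPM for Cyp11a1, 44.3 CPM for Cyp17a1, 33.0 CPM for Insl3 and 21.0 CPM for Star. Over all barcodes, 12 held at least 5 UMIs each of Cma1 and Cpa3, which encode proteases that mast cells are known to store, a pair of genes chosen after the values were seen. The controls had 1 and 6 of them and Sox17-cKO 2 and 3. Of the 12, 11 had Cyp11a1, 97 UMIs in all. The level over all 12 ran from 0 to 4540 CPM with a median of 2323 CPM.

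The same 12 barcodes held 20 Fdx1 UMIs and 0 UMIs of Star, Cyp17a1, Hsd3b1, Hsd3b6, Hsd17b3, Insl3, Srd5a1 and Akr1c14. Of them, 6 were macrophage-like, 4 had under 1000 detected genes, 1 was stromal-like with 21 Cyp11a1 UMIs, and 1 was among the 14 Leydig-like cells of control 1. At a clustering resolution of 0.8, 5 of them fell in a cluster of 53 cells whose other 48 cells had 0 Cyp11a1 UMIs, and macrophage-like cells were then at 2.97 CPM from 6 UMIs in 241 cells.

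**Figure D4:**
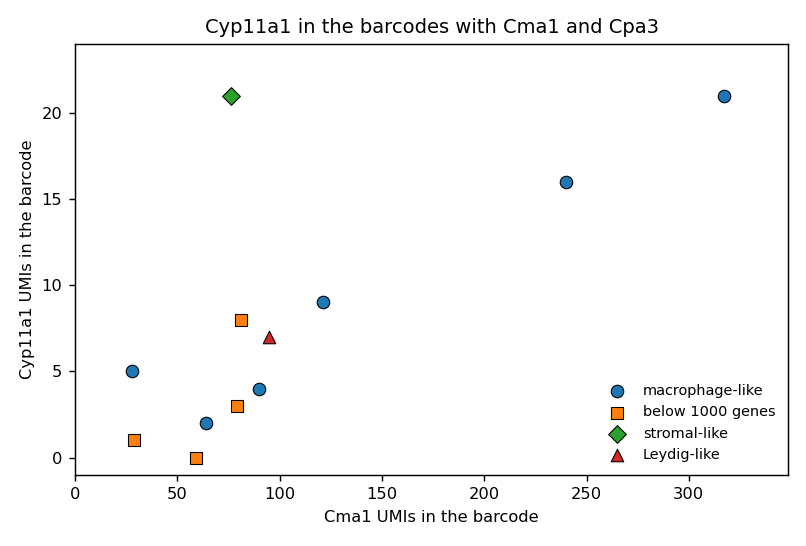
Cyp11a1 UMIs against Cma1 UMIs in each of the 12 barcodes with at least 5 UMIs of both Cma1 and Cpa3, with symbols for the class of the barcode. In all, 11 barcodes hold Cyp11a1, up to 21 UMIs. They lie among macrophage-like, stromal-like and Leydig-like cells and among barcodes with under 1000 detected genes, which belong to no class.

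Of all UMIs of the genes, a large part lay outside the cells analysed. Leydig-like cells held 56.5% of the 8476 Cyp17a1 UMIs and barcodes with over 4500 detected genes 37.7%. For Cyp11a1 these shares were 39.3% and 55.8%, for Insl3 48.4% and 45.7%, for Hsd3b6 46.3% and 45.7%, for Hsd3b1 40.9% and 55.3%, and for Star 16.7% and 57.3%. Barcodes above 4500 genes were 17.0% of barcodes with 55.9% of all UMIs. The share held there differed between libraries, for Cyp17a1 at 48.5% and 53.1% in controls and 37.1% and 24.4% in Sox17-cKO, and for Cyp11a1 at 55.6% and 74.3% in controls and 58.7% and 41.7% in Sox17-cKO. Without control 2 the share there was 27.5% for Insl3 and 31.5% for Hsd3b6. Sertoli-like cells outside the SV cluster held 28.9% of Hsd17b3, and Leydig-like cells 1.35%. The latter rests on 20 UMIs and was 0 and 3.57% in controls and 0.452 and 1.46% in Sox17-cKO.

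A count of 3 or more Cyp17a1 UMIs was found in 232 barcodes. Of these, 145 were Leydig-like, 74 had over 4500 genes, 11 were stromal-like, 1 was macrophage-like, 1 was Sertoli-like and 0 were germ-like. Those above 4500 genes were 2 and 40 in the controls and 11 and 21 in Sox17-cKO, so control 2 had nearly as many there as its 46 Leydig-like ones. The macrophage-like barcode, of Sox17-cKO 1 and among the highest doublet scores, held 11 of the 12 Cyp17a1 UMIs of its class.

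**Figure D5:**
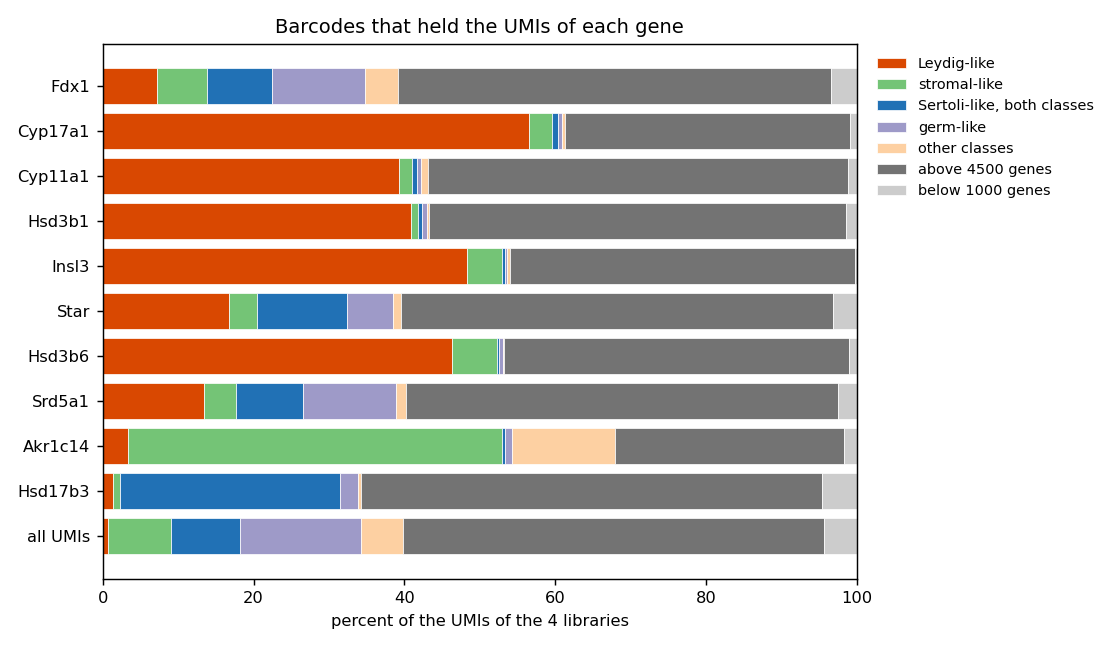
Share of the UMIs of each gene, and of all UMIs, held by Leydig-like, stromal-like, Sertoli-like, germ-like and other cells and by barcodes above 4500 or below 1000 detected genes, as percent of the UMIs of the 4 libraries. Leydig-like cells held 0.71% of all UMIs and 56.5% of those of Cyp17a1, and barcodes above 4500 genes held 30.4 to 61.1% of each gene.

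Over whole libraries, which mix level per cell with the number of cells so that fewer cells and less RNA per cell cannot be told apart, Insl3 was at 0.678 and 34.4 CPM in controls and at 4.68 and 6.34 CPM in Sox17-cKO, a 50.8-fold span. Hsd3b6 spanned 59.2-fold, from 0.213 CPM in control 1 to 12.6 CPM in control 2, and Cyp17a1 13.9-fold. Star spanned 2.34-fold, Srd5a1 1.65-fold and Fdx1 1.15-fold. In 7 genes, Insl3, Hsd3b6, Cyp17a1, Cyp11a1, Hsd3b1, Star and Srd5a1, control 1 was the lowest library. All 10 genes were tested in these sums, and none was called, nor was any of 19175 genes (0%) by edgeR, with 51 at an unadjusted p under 0.05 and 3 calls by DESeq2. The estimates ran from -1.70 (SE 1.59) for Insl3 to 0.90 (SE 1.15) for Cyp11a1.

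Genotypes were also compared in 3 other classes, in each of which edgeR with genotype alone in the design called no gene, and not in the remaining classes. In stromal-like cells 9 of the 10 genes were tested among 12933 (0% called, 69 at an unadjusted p under 0.05, 1 by DESeq2). The estimate was 3.87 (SE 0.98, edgeR adjusted p 1.0) for Cyp11a1 and 2.47 (SE 1.40, edgeR adjusted p 1.0) for Cyp17a1. Without Sox17-cKO 2 it was 2.05 (SE 1.45) for Cyp11a1 and -2.88 for Cyp17a1. Of the 9 estimates 7 lay above 0 and 2 below, with a median of 0.34 beside 0.0020 over all genes tested, and Cyp11a1 alone had an unadjusted edgeR p under 0.05 (0.00745). Without Sox17-cKO 1 the log2 values were 4.60 for Cyp11a1 and 3.38 for Cyp17a1. Without a filter on low counts both genes were called, with 3.87 (edgeR adjusted p 1.43e-07) and 2.47 (edgeR adjusted p 0.000222). Much of this signal lay in few cells of Sox17-cKO 2. Leaving out the 10 cells of the cycling cluster with high Cyp17a1 took its stromal-like Cyp17a1 from 217 to 21 UMIs. It took its Cyp11a1 from 152 to 73 UMIs, and 21 of these lay in 1 barcode with Cma1 and Cpa3.

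In Sertoli-like cells outside the SV cluster 6 genes were tested among 12389 (0% called, 86 at an unadjusted p under 0.05, 0 by DESeq2). The estimates were 1.64 (SE 1.15) for Cyp17a1, 1.51 (SE 0.78) for Cyp11a1, 0.42 (SE 0.37) for Srd5a1, -0.06 (SE 0.41) for Star, -0.10 (SE 0.45) for Hsd17b3 and -0.35 (SE 0.26) for Fdx1, with a median of 0.18 beside -0.01 over all genes tested. With the replicate number as a block edgeR called 28 genes in this class. In SV Sertoli-like cells Star and Fdx1 were tested among 5713 genes (0% called, 104 at an unadjusted p under 0.05, 0 by DESeq2), with estimates of -0.06 (SE 0.30) for Star and -0.40 (SE 0.34) for Fdx1. The standard error for Star bounds what these libraries could show, and its 4 SV Sertoli-like values lay within 160 to 185 CPM.

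The genes that feed the pathway were read in Leydig-like cells from 7 lists of 68 further genes, of which a few stand in more than 1 list, with the 3 highest of each list named. Of 8 receptors and regulators, Prlr was highest at 745 ± 59.8 CPM, followed by Lhcgr at 165 ± 32.0 CPM and Nr5a1, the steroidogenic factor 1 gene, at 114 ± 66.4 CPM. Of 12 genes of cholesterol supply, Soat1, which esterifies cholesterol for storage, was at 612 ± 391 CPM, Npc2 at 277 ± 30.3 CPM and Tspo at 252 ± 39.0 CPM. Of 5 electron donors and cofactors, Cyb5a was at 439 ± 30.9 CPM, Fdxr, the reductase that serves FDX1, at 354 ± 65.6 CPM and Cyb5b at 188 ± 27.7 CPM. In these lists 3 of 8, 5 of 12 and 3 of 5 genes were highest in Leydig-like cells. Npc2, Tspo and Cyb5a were not among them, and Cyb5a was at 798 CPM in Sertoli-like cells outside the SV cluster. Lhcgr, Prlr, Scarb1 and Fdxr, which were among them, were also Leydig markers fixed for naming the class. Their place in these counts is therefore no separate result, and Mc2r was a naming marker too. The share of all genes highest in this class is not given, so the counts describe the lists only.

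Cholesterol synthesis was the list most often highest in Leydig-like cells, 17 of 19 genes, led by Hmgcs1 at 682 ± 35.9 CPM, Msmo1 at 414 ± 42.5 CPM and Fdps at 209 ± 122 CPM. Of the other steroid enzymes, 19 of 20 were found by symbol, with Akr1cl at 2087 ± 583 CPM, Hsd17b12 at 81.7 ± 22.1 CPM and Hsd17b4 at 53.8 ± 9.38 CPM. Of those found, 4 were highest in Leydig-like cells, and Hsd17b12 and Hsd17b4 were not among them. Of genes tied to the adult Leydig stage, Vcam1 was at 897 ± 169 CPM, while Hsd11b1, Ptgds and Sult1e1 had means of 2.85, 1.48 and 1.03 CPM. The fetal-stage genes Thbs2, Crhr1 and Mc2r were at 2.75, 0.911 and 0 CPM. In the genotype comparison of Leydig-like cells 48 of these genes were tested and 0 called by edgeR, with 2 at an unadjusted p under 0.05. For cholesterol synthesis 17 of 19 estimates lay above 0 with a median log2 of 0.16, beside a median of 0.02 over all genes tested, and none was called. In control 1 Mvk, Lss and Tm7sf2 were at 7.86 CPM, the worth of 1 UMI. Fdps was at 390 CPM in Sox17-cKO 1 against 126 to 166 CPM in the other libraries. The shares of all genes highest in this class, or with an estimate above 0, are not given. Neither count of 17 therefore sets this list apart.

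Over the 28 sums of a class in a library with at least 50 cells (9 classes, 4 libraries; of Leydig-like cells the 89 of control 2 and the 116 of Sox17-cKO 2), the 5 genes outside the set with the most similar pattern to Cyp17a1, by Pearson's r of log2(CPM + 1), were Tmem200a (0.94), Bhmt (0.92), Aldh3a1 (0.92), Hao2 (0.90) and Ugt3a2 (0.90). Their Leydig-like means ran from 8.11 CPM for Ugt3a2 to 127 CPM for Hao2, which was also a Leydig marker fixed for naming. Of the 10 genes themselves, r with Cyp17a1 was 0.91 for Insl3, 0.89 for Hsd3b6, 0.86 for Hsd3b1, 0.83 for Cyp11a1 and 0.62 for Star. Nearest to Akr1c14 were Gm4262 (0.93), Egfros (0.92), Hapln1 (0.91), Dpep1 (0.91) and Fgf7 (0.91), and r of Akr1c14 with Cyp17a1 was 0.33. The sums share libraries, and these values describe likeness over classes only.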

How the data were processed

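Single-cell RNA was measured in 4 libraries from 10x Genomics 3′ kits. The deposited UMI counts were made by the authors with Cell Ranger 6.0.2 for both libraries numbered 1 and 6.1.2 for both numbered 2, on mouse mm10, without normalisation. Replicate number and software version therefore coincide. The study's filter of 1000 to 4500 detected genes was kept, its limit on mitochondrial RNA was not, and the 2 combined matrices were not used, nor was any value of the study's own test tables. Cells were integrated and clustered with Seurat 5.3.0 (2000 variable genes without the 10 genes and 68 pathway genes, 20 components, resolution 0.4) and named from markers. No caller removed doublets, since Scrublet marked 0 barcodes in both libraries numbered 1. Counts were summed per class and library and tested with edgeR 4.0.16 (TMM, filterByExpr, two-sided, Benjamini-Hochberg, threshold 0.05), with DESeq2 1.42.0 as an alternative. The libraries are separate pools of pups. The scripts were tested on simulated data. Genes named beside the 10 were the 3 highest of each list in Leydig-like cells, the 5 most like Cyp17a1 and Akr1c14, and any called. The genes and lists were chosen with earlier results of these data known. Insl3 lies inside Jak3 on the same strand, and Cyp11a1, Srd5a1 and Akr1c14 overlap other genes.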

Additional observations from a re-analysis of the deposited data

Results flagged for a closer look

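Signals lay in barcodes outside the cells compared above. Of the barcodes with over 4500 detected genes, 74 held 3 or more Cyp17a1 UMIs, where germ-like cells within the range held no such barcode. Of these 74, 16 were among the highest doublet scores. Of the barcodes with under 1000 detected genes, 4 held at least 5 UMIs each of Cma1 and Cpa3, and 3 of them held Cyp11a1, 12 UMIs in all.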

How the results depend on the processing

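Where edgeR called 0 genes between genotypes, other settings called a few. Without a filter on low counts it called 8 genes in Leydig-like, 13 in stromal-like and 2 in SV Sertoli-like cells, and DESeq2 called 1, 1 and, in whole-library sums, 3. With 1 library left out the count ran from 1 to 16 in Leydig-like cells, from 0 to 7 in stromal-like cells, from 0 to 8 in SV Sertoli-like cells and from 0 to 1 in whole-library sums, where a lone library of a genotype is assumed to vary like the others. With the replicate block 3 genes were called in Leydig-like, 1 in stromal-like, 28 in the other Sertoli-like cells and 6 in whole-library sums. Libraries with the same number deviated together (r = 0.753 over 19175 genes), but 2 pairs do not show that the numbers pair the samples, and they coincide with the Cell Ranger version. The difference in the Leydig-like share ran from -0.296 to 1.20 percentage points with 1 library left out, and it was negative without control 1 or without Sox17-cKO 2. The Cyp17a1 share of Leydig-like cells was 65.8% unthinned and 65.5% at 4000 UMIs.

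Some genotype estimates (log2) changed sign. With 1 library left out they ran, in Leydig-like cells, from -0.22 to 2.61 for Hsd3b6, -1.19 to 0.69 for Hsd3b1, -1.29 to 0.71 for Star, -1.83 to 0.49 for Insl3, -0.46 to 0.17 for Srd5a1 and -0.33 to 0.88 for Cyp17a1. In stromal-like cells they ran from -1.17 to 2.73 for Insl3, -0.13 to 0.19 for Fdx1, -0.10 to 0.60 for Srd5a1 and -2.88 to 4.50 for Cyp17a1, in the other Sertoli-like cells from -0.63 to 0.35 for Star, -0.85 to 0.39 for Hsd17b3 and -0.57 to 3.17 for Cyp17a1, and in SV Sertoli-like cells from -0.21 to 0.080 for Star. In whole-library sums they ran from -1.07 to 4.77 for Hsd3b6, -0.30 to 1.70 for Hsd3b1, -0.20 to 0.80 for Star, -2.66 to 2.96 for Insl3, -0.29 to 3.18 for Cyp11a1, -1.13 to 0.22 for Akr1c14, -0.67 to 0.47 for Hsd17b3, -0.041 to 0.54 for Srd5a1 and -0.92 to 3.03 for Cyp17a1. The stromal against germ difference ran from -0.27 to 0.12 for Srd5a1. Without the upper limit of detected genes the estimate was 0.10 for Srd5a1 in Leydig-like cells, -0.049 for Star in stromal-like cells, and 0.087 for Star, -0.21 for Cyp11a1 and -0.19 for Cyp17a1 in the other Sertoli-like cells. Under 10% mitochondrial UMIs it was 0.32 for Hsd17b3 and -0.12 for Srd5a1 in these and 0.079 for Star in SV Sertoli-like cells. For Fdx1 in stromal-like cells it was -0.024 without the cycling cluster and -0.025 without that cluster and the barcodes with Cma1 and Cpa3. In whole-library sums Hsd3b6 was at 1.37 with the replicate block and 0.41 over barcodes with 1000 to 4500 genes, and Hsd17b3 at -0.0070 without a filter, -0.016 with DESeq2 and -0.075 with the replicate block. The causes were not tested. Without integration, or without the upper limit, no SV Sertoli-like cluster was found and its results have no value there. Few Leydig-like cells in control 1 limit every value that rests on them.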
